A study of Mus musculus with 12 samples.

Results

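Myc and 48 genes of ribosome biogenesis were followed in activated mouse CD4+ T cells with and without interleukin-12 (IL-12). The 49 genes were picked by symbol: Myc, RNA polymerase I genes, snoRNP proteins and nucleolar factors that process and assemble ribosomal subunits. The array annotation holds 48 of them, out of 19752 genes measured, and does not list Noc2l, a 60S assembly factor. The 48 are Myc, 7 genes of RNA polymerase I and its factors, 5 of the box C/D snoRNP and nucleolar scaffold, 3 of the box H/ACA snoRNP, 16 of the small subunit processome and 40S maturation, 11 of 60S assembly, and 5 helicases and other nucleolar factors. All 48 lay above the dimmest 25% of genes.

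RNA from splenic CD4+ T cells, enriched by negative selection from male C57BL/6 mice 6 weeks old, was hybridised to 12 Affymetrix Mouse Gene 1.0 ST arrays. Before that, all cells had spent 48 h with beads carrying antibodies to CD3 and CD28, which activate T cells. Afterwards 4 samples were cultured with IL-12 at 100 U/ml for 8 h (title numbers 2, 3, 5 and 6), 5 with the same dose for 2 h (numbers 2 to 6) and 2 without it for 2 h (numbers 7 and 8), and 1 is labelled baseline (number 5). No untreated 8 h culture was analysed here, so a longer culture and a longer time with IL-12 cannot be told apart. The labels do not say what the title numbers stand for or whether samples of a group are separate animals or cultures, so the p-values rest on a spread that may be technical. In bulk RNA, fewer cells of a type and less RNA per cell cannot be told apart.

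Myc is a transcription factor that dimerises with Max, binds E-box sequences and raises the output of genes for ribosome production in growing cells. T cells induce it on activation, as they enlarge before division. Ribosomes are built in the nucleolus: RNA polymerase I makes the long precursor of ribosomal RNA, snoRNPs modify it, the small subunit processome cleaves and folds the 18S part, and separate sets of factors mature the 40S and 60S subunits.

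Values are log2 intensities, and levels of different genes are not compared because probes differ. All 12 arrays were fitted together in limma, with a mean for each of the 4 groups and a run term that separates title numbers 2 to 4 and 5 to 8. A call means an adjusted p below 0.05, by Benjamini-Hochberg across the 19752 genes. Log2 changes are given ± SE. Cd4 lay between 11.51 and 12.07 and Cd3e between 12.44 and 12.91 on all arrays, so the labelled cell type had its defining transcripts. The comparisons share samples and are not independent of each other.

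The canonical E-box CACGTG, which reads the same on both strands, was searched in RefSeq promoters (GRCm38.p6) from 250 bases before to 50 bases after the start. Of the 45 genes of the set with an entry, 13 held it (28.9%), against 8.09% of all 27025 genes in the promoter table. Of the other ribosome assembly factors 12 of 67 held it (17.9%), and of the cytosolic ribosomal protein genes 5 of 48 (10.4%). Among genes lower at 8 h than at 2 h of IL-12 in the results that follow, it was in 4 of 8 promoters, Ltv1, Dhx33, Tsr1 and Wdr43. It was in 1 of the 2 promoters of genes higher at 8 h, Utp20, and in 8 of 34 promoters of uncalled genes. These 5 promoters are shown because they belong to called genes and hold the motif, printed in capitals.
Ltv1 promoter, chr10:13193088-13193387, minus strand: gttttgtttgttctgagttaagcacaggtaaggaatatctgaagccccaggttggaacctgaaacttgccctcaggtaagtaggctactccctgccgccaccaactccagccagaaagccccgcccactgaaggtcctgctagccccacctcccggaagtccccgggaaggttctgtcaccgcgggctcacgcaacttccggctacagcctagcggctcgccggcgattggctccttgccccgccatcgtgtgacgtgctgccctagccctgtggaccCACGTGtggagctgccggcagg
Dhx33 promoter, chr11:71004383-71004682, minus strand: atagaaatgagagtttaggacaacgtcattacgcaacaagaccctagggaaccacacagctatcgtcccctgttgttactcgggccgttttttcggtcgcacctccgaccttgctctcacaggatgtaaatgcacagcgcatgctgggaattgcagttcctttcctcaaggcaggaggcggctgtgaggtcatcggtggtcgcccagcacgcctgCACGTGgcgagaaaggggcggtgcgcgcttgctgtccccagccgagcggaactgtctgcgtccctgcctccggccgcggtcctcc
Tsr1 promoter, chr11:74897830-74898129, plus strand: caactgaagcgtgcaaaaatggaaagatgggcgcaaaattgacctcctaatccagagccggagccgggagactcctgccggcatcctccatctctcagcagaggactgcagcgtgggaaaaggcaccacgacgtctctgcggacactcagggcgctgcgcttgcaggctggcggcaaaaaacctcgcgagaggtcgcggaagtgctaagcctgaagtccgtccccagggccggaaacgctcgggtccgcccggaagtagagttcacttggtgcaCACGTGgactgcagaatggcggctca
Wdr43 promoter, chr17:71615965-71616264, plus strand: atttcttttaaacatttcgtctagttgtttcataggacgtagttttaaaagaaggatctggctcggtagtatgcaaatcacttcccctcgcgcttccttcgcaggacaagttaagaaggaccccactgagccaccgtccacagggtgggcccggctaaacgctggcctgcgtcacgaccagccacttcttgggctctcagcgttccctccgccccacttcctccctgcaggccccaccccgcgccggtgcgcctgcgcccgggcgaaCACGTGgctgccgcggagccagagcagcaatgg
Utp20 promoter, chr10:88826765-88827064, minus strand: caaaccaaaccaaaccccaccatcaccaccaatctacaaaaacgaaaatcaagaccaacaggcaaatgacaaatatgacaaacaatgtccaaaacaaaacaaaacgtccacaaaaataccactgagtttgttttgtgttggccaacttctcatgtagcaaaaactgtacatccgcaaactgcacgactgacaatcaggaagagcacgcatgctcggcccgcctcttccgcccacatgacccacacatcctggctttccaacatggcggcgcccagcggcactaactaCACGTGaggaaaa
The motif began 28 bases downstream of the start in Ltv1, 24 in Tsr1, 17 in Wdr43 and 37 in Utp20, and 35 bases upstream of it in Dhx33. Of the 13 genes, 8 had their first match downstream of the start. Myc, Rrp12, Bop1 and Fbl had no entry. A match is a description of these letters and not a bound site.

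Between 8 h and 2 h of IL-12, Myc and a minority of the ribosome biogenesis genes were lower. Of the 48 genes 9 were called lower (18.8%), against 6.36% of all genes, and 2 were called higher (4.17%), against 6.27% of all genes. The lower ones were Myc, Polr1b, Nolc1, Wdr43, Tsr1, Ltv1, Nob1, Rrp1b and Dhx33, and the higher ones were Wdr12 and Utp20. The median log2 change over the 48 was -0.03, against -0.01 over all genes. It was negative for 29 of the 48, against 10546 of all 19752 genes. Changes of more than 0.1 in either direction were found for 26 of the 48, against 40.3% of all genes. All 8 h samples lay below all 2 h samples for 7 genes, Myc, Ltv1, Rrp1b, Dhx33, Tsr1, Wdr43 and Ddx10, where 4.23% of all genes did so. All 8 h samples lay above for Utp20 and Ubtf, where 3.98% of all genes did so.

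**Figure D1:**
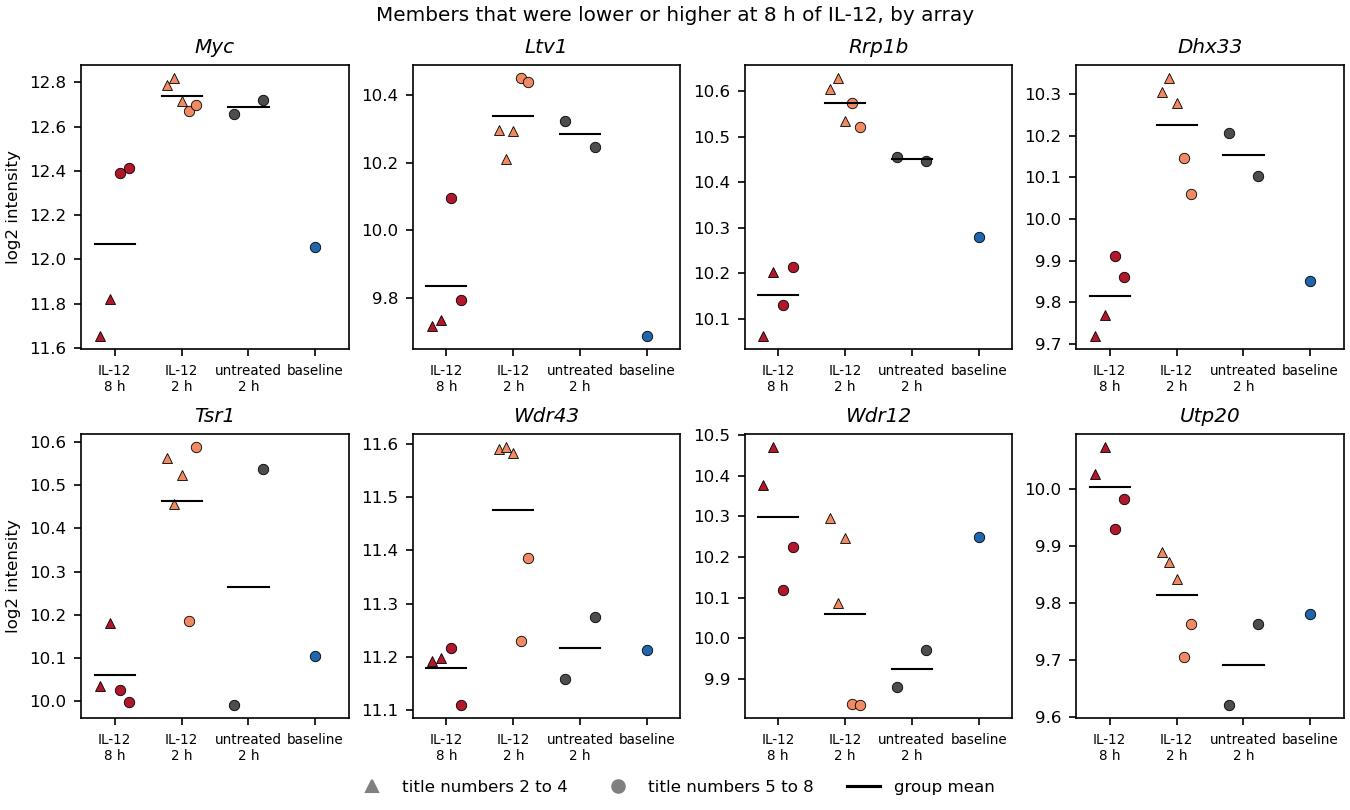
Log2 intensity (vertical axes) of 8 genes by group, with 1 point per array. Triangles are arrays numbered 2 to 4, circles those numbered 5 to 8, and bars are group means where a group has more than 1 array. Myc, Ltv1, Rrp1b, Dhx33, Tsr1 and Wdr43 lay lower in every IL-12 8 h array than in every IL-12 2 h array. Utp20 lay higher in every 8 h array, while Wdr12 overlapped between the times.

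Myc had 11.65, 11.82, 12.39 and 12.41 in IL-12 8 h samples 2, 3, 5 and 6, and 12.79, 12.82, 12.71, 12.67 and 12.70 in IL-12 2 h samples 2 to 6. It had 12.66 and 12.72 in untreated samples 7 and 8 and 12.06 in the baseline sample. The 8 h samples were all below the 2 h and untreated samples, and samples 2 and 3 were the lowest of all 12. The 8 h mean was 12.07 ± 0.39 (SD, n = 4), against 12.74 ± 0.06 at 2 h (SD, n = 5), a log2 change of -0.69 ± 0.12 (1.62-fold lower, adjusted p = 0.0013). The fall kept its call when any 1 array was left out, with log2 changes between -0.77 and -0.57.

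The size of the Myc change differed between the runs of title numbers. Among samples numbered 2 to 4 it was -1.04 ± 0.07 (adjusted p = 3.19e-05), and among samples numbered 5 to 8 it was -0.28 ± 0.09 (adjusted p = 0.187). The difference between these changes, tested in a fit with separate means for each group and run, was -0.76 ± 0.11 (adjusted p = 0.00403). Of the 48 genes 2 passed that test, Myc and Nop56, against 1.79% of all genes.

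Of the 16 genes of the small subunit processome and 40S maturation 4 were lower (25%), Ltv1, Tsr1, Nob1 and Wdr43, against 6.36% of all genes. Utp20 was higher, 1 of the 16 (6.25%), near the 6.27% of all genes. Ltv1, a pre-40S assembly factor, had 9.72, 9.73, 10.09 and 9.79 at 8 h and 10.30, 10.21, 10.29, 10.45 and 10.44 at 2 h. All 8 h values lay below all 2 h values, and sample 5 was the highest at 8 h. The log2 change was -0.52 ± 0.06 (adjusted p = 0.00012), and it was -0.54 and -0.50 within numbers 2 to 4 and 5 to 8. Tsr1, a GTPase-like factor that occupies the same particle, had 10.04, 10.18, 10.03 and 9.999 at 8 h and 10.56, 10.46, 10.52, 10.19 and 10.59 at 2 h. Sample 5 at 2 h lay close to the 8 h samples, and the others stood well above. Its change was -0.39 ± 0.10 (adjusted p = 0.0215). The call was lost without 8 h sample 2 (adjusted p = 0.0812), 2 h sample 2 (0.0515) or 2 h sample 6 (0.0572).

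Nob1, the endonuclease that makes the final cut at the 3′ end of 18S RNA, changed by -0.26 ± 0.07 (adjusted p = 0.0308). It had 10.27, 10.37, 10.60 and 10.68 at 8 h and 10.71, 10.80, 10.72, 10.74 and 10.67 at 2 h. Samples 2 and 3 at 8 h were low, while sample 6 reached the lowest 2 h value. Within numbers 2 to 4 the change was -0.42 (adjusted p = 0.00284), and within numbers 5 to 8 it was -0.06 (adjusted p = 0.862). Nob1 missed the threshold without any 1 of 8 h samples 2 and 3 and 2 h samples 2, 3 and 4 (adjusted p between 0.0698 and 0.142). Pno1, its partner protein, changed by 0.12 ± 0.07 and was not called.

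Early in small subunit assembly, Wdr43, a processome protein needed for transcription and processing of the precursor, had 11.19, 11.20, 11.22 and 11.11 at 8 h. At 2 h it had 11.59, 11.60 and 11.58 in samples 2 to 4 and 11.23 and 11.39 in samples 5 and 6. The groups did not overlap, though 2 h sample 5 came close to the highest 8 h sample. Its change was -0.28 ± 0.07 (adjusted p = 0.011), and the call was lost without 8 h sample 2 (adjusted p = 0.0531) or 3 (0.0565). Within numbers 2 to 4 Wdr43 changed by -0.40 (adjusted p = 0.00216) and within numbers 5 to 8 by -0.15 (adjusted p = 0.619). Utp20, a large scaffold protein of the processome, went the other way, with 10.03, 10.07, 9.93 and 9.98 at 8 h and 9.89, 9.87, 9.84, 9.71 and 9.76 at 2 h. The 8 h samples were all above the 2 h samples, and the change was 0.20 ± 0.05 (adjusted p = 0.0242). It was lost without 8 h sample 3 (0.0806) or 6 (0.0555), or 2 h sample 4 (0.0585) or 5 (0.0617), as adjusted p. The other 10 measured genes of this branch, Rrp9, Rrp12, Utp14a, Utp15, Utp18, Nop14, Noc4l, Bms1, Heatr1 and Imp4, were not called, with changes between -0.20 and 0.23.

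Among 60S factors, Rrp1b, a nucleolar protein of pre-60S particles that also binds protein phosphatase 1, was lower and Wdr12 was higher. Rrp1b had 10.06, 10.20, 10.13 and 10.22 at 8 h and 10.61, 10.63, 10.54, 10.57 and 10.52 at 2 h. The groups were far apart, the closest pair being 8 h sample 6 and 2 h sample 6. The change was -0.42 ± 0.06 (adjusted p = 0.000226), and it was -0.46 and -0.38 within numbers 2 to 4 and 5 to 8. Wdr12, which forms the PeBoW complex with Pes1 and Bop1, had 10.38, 10.47, 10.12 and 10.23 at 8 h and 10.30, 10.09, 10.25, 9.84 and 9.84 at 2 h. The groups overlapped, but within each run the 8 h samples were higher. Its change was 0.27 ± 0.06 (adjusted p = 0.0107), and its other, dimmer probe set gave 0.31 ± 0.08 (adjusted p = 0.0172). Its partners changed by -0.03 ± 0.06 (Pes1) and 0.12 ± 0.07 (Bop1) and were not called.

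Gnl3 (nucleostemin, a nucleolar GTPase) had 10.68, 10.81, 10.67 and 10.54 at 8 h and 11.21, 11.07, 11.26, 10.46 and 10.79 at 2 h. Of its 2 h samples, 2 to 4 lay above all 8 h samples, 6 among them and 5 below them, and the change of -0.25 ± 0.09 was not called (adjusted p = 0.111). Nop2, an RNA methyltransferase of the large subunit, Nop16, Noc3l, Grwd1, Nip7 and Mrto4 were not called either, with changes between -0.23 and -0.02.

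Dhx33, a helicase linked to transcription of ribosomal DNA, had 9.72, 9.77, 9.91 and 9.86 at 8 h and 10.31, 10.34, 10.28, 10.15 and 10.06 at 2 h. All 8 h samples lay below all 2 h samples, and the change was -0.41 ± 0.07 (adjusted p = 0.00164). Within numbers 2 to 4 Dhx33 changed by -0.56 (adjusted p = 0.000386) and within numbers 5 to 8 by -0.22 (adjusted p = 0.343), with a difference of -0.35 ± 0.11 between the runs that was not called (adjusted p = 0.138). Ddx10, a helicase of early 18S processing in yeast, had 10.02, 9.98, 9.96 and 9.82 at 8 h and 10.33, 10.11, 10.29, 10.13 and 10.83 at 2 h. The groups did not overlap, yet the scatter at 2 h was wide and the change of -0.40 ± 0.14 was not called (adjusted p = 0.0795). Ddx18, Ddx21 and Mybbp1a, the other helicases and nucleolar factors, changed by 0.05 ± 0.06, -0.10 ± 0.05 and 0.13 ± 0.08 and were not called.

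For RNA polymerase I, Polr1b, the second-largest subunit of the catalytic core, had 10.62, 10.66, 10.82 and 10.95 at 8 h and 11.07, 11.10, 11.07, 10.95 and 10.87 at 2 h. Samples 2 and 3 at 8 h were lowest, and the 8 h and 2 h samples of numbers 5 and 6 overlapped. The change was -0.25 ± 0.08 (adjusted p = 0.0448), within numbers 2 to 4 it was -0.44 ± 0.06 (adjusted p = 0.00141), and within numbers 5 to 8 it was -0.03 ± 0.10 (adjusted p = 0.946). Leaving out any 1 of 7 samples, 8 h samples 2, 3 and 5 and 2 h samples 2 to 5, ended the call (adjusted p up to 0.183). Polr1c, a subunit shared with RNA polymerase III, had 11.05, 11.15, 11.03 and 11.26 at 8 h and 11.34, 11.39, 11.38, 11.11 and 11.15 at 2 h, and its change of -0.14 ± 0.07 was not called. Ubtf (UBF), which binds and opens ribosomal DNA, had 11.69, 11.67, 11.68 and 11.72 at 8 h and 11.60, 11.62, 11.59, 11.58 and 11.47 at 2 h. All 8 h values were higher, but the change of 0.12 ± 0.05 was not called (adjusted p = 0.158). Polr1a (the largest subunit), Polr1e, Rrn3 (the factor that joins the enzyme to the promoter) and Taf1d (a subunit of the promoter complex SL1) changed by -0.09 to 0.10 and were not called.

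Of the snoRNP proteins, Nolc1 (Nopp140, a chaperone of snoRNPs) was called. It had 11.09, 11.16, 10.93 and 10.92 at 8 h and 11.31, 11.35, 11.30, 11.08 and 11.06 at 2 h. The 8 h samples were lower within each run, with a change of -0.17 ± 0.05 (adjusted p = 0.0384), and leaving out any 1 of the 9 IL-12 samples ended the call (adjusted p between 0.0548 and 0.141). Nop56, a core box C/D protein, had 12.13, 12.18, 12.24 and 12.35 at 8 h and 12.39, 12.44, 12.38, 12.004 and 11.97 at 2 h. It was lower at 8 h in numbers 2 to 4 (-0.25 ± 0.06, adjusted p = 0.0258) and higher, without a call, in numbers 5 to 8 (0.31 ± 0.10, adjusted p = 0.173). The difference between those changes was -0.55 ± 0.11 (adjusted p = 0.0191). It missed the threshold without any 1 of 8 h samples 2, 3 and 6 and 2 h samples 3, 4 and 6 (adjusted p between 0.0528 and 0.0989).

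Nop58, the other core scaffold protein of the box C/D particle, had 10.59, 10.78, 10.40 and 10.30 at 8 h and 10.87, 10.84, 10.86, 10.20 and 10.76 at 2 h, and it was not called (-0.16 ± 0.10). Fbl (fibrillarin, the methyltransferase) and Ncl (nucleolin) changed by 0.04 ± 0.07 and 0.01 ± 0.06. In the box H/ACA snoRNP, whose enzyme Dkc1 makes pseudouridine, no gene was called. Dkc1 had 11.12, 11.10, 11.05 and 11.02 at 8 h and 11.12, 11.10, 11.06, 10.82 and 11.30 at 2 h. Gar1 had 11.06, 11.24, 11.23 and 11.27 at 8 h and 11.33, 10.92, 11.39, 10.86 and 11.40 at 2 h. Nhp2 had 10.02, 10.14, 9.95 and 10.11 at 8 h and 10.24, 9.91, 10.20, 9.87 and 9.79 at 2 h. All 3 overlapped between the times, with changes between -0.0025 and 0.07.

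**Figure D2:**
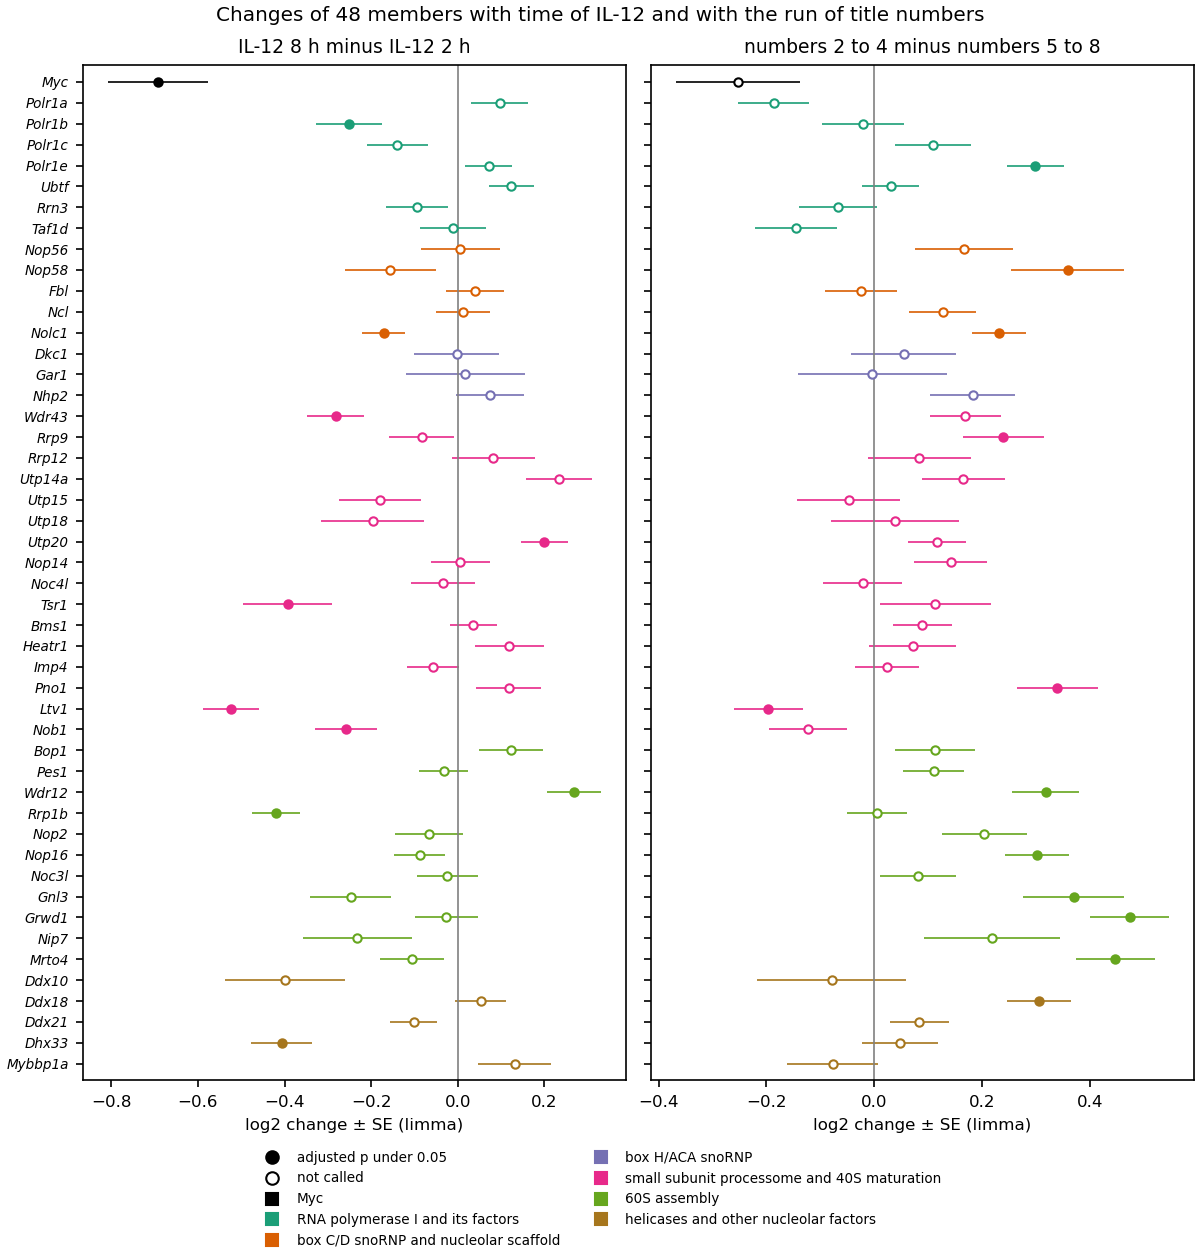
Log2 change ± SE of 48 genes, ordered and coloured by role, for IL-12 8 h minus IL-12 2 h (left) and for title numbers 2 to 4 minus 5 to 8 (right). Filled points passed an adjusted p under 0.05. At 8 h 9 genes were lower, led by Myc at -0.69, and 2 higher, while 11 genes were higher and 1 lower in numbers 2 to 4.

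With the title number as a replicate block, fitted on the IL-12 samples alone, 5 genes remained lower, Myc, Ltv1, Rrp1b, Dhx33 and Tsr1 (adjusted p between 0.00411 and 0.0291). That is 10.4% of the 48, against 3.84% of all genes lower in this fit, and 0 of the 48 were called higher, against 2.47% of all genes. Of markers of other cells, 0 of 14 for macrophages and monocytes were called between 8 h and 2 h, 1 of 7 for B cells was lower, 1 of 6 for NK cells was higher and 1 lower, and 1 of 4 for erythroid cells was higher. None of the 7 dendritic cell, 8 neutrophil and 2 CD8 T cell markers was called. The summed linear intensity of macrophage and monocyte markers was 1151 to 1168 at 8 h and 1190 to 1248 at 2 h in numbers 2 to 4, and 1688 to 1947 at 8 h and 1783 to 2085 at 2 h in numbers 5 to 8. In numbers 2 to 4 the sums of 3 further lists were also lower at 8 h without overlap: 458 to 481 at 8 h against 554 to 596 at 2 h for NK cells, 1379 to 1449 against 1500.5 to 1646 for B cells, and 520.3 to 534 against 580.3 to 598 for dendritic cells. In numbers 5 to 8 these 3 sums overlapped between the times. There the CD8 T cell sums were lower at 8 h without overlap, at 667 to 681 against 683 to 800. A fit with the mean of the macrophage and monocyte markers as a covariate is given further below. The part of these markers in the changes was not otherwise tested. Of the 9 CD4 T cell markers measured, 2 were called higher (22.2%) and 0 lower, against 6.27% of all genes higher and 6.36% lower. Their sums were higher at 8 h without overlap in both runs. In numbers 2 to 4 they were 39692 to 40744 at 8 h against 35665 to 36875 at 2 h. In numbers 5 to 8 they were 40249 to 40506 against 37132 to 39407.

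Both runs were compared separately because each holds IL-12 samples of both times. Within numbers 2 to 4, with 2 samples at 8 h and 3 at 2 h, 16 of 48 genes were lower (33.3%), against 7.68% of all genes. Only Utp14a was higher, by 0.33 ± 0.07 (adjusted p = 0.0144), against 8.65% of all genes called higher. The 16 were Myc, Dhx33, Ltv1, Polr1b, Wdr43, Rrp1b, Nob1, Tsr1, Gnl3, Nop2, Polr1c, Mrto4, Nop56, Utp18, Nip7 and Rrp9. Within numbers 5 to 8, with 2 samples at each time, 0 were lower and 0 higher, where 1.44% and 0.395% of all genes were called. There the smallest adjusted p belonged to Ltv1 (-0.50 ± 0.11, adjusted p = 0.0654) and Rrp1b (-0.38 ± 0.09, adjusted p = 0.084). The median change over the 48 was -0.15 in numbers 2 to 4, with 36 negative, and 0.04 in numbers 5 to 8, with 22 negative. Over all 19752 genes the medians were -0.015 and -0.0006, with 10769 and 9913 negative. For 42 of the 48 the change was more negative in numbers 2 to 4, against 10407 of all 19752 genes.

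**Figure D3:**
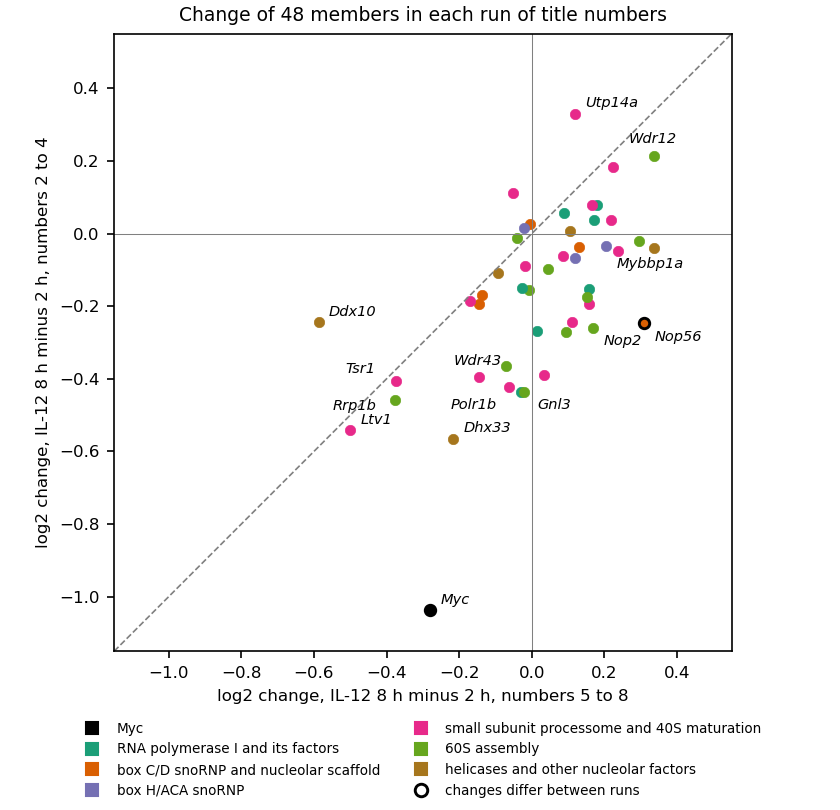
Log2 change from IL-12 8 h minus IL-12 2 h for 48 genes in samples numbered 5 to 8 (horizontal) and in samples numbered 2 to 4 (vertical), coloured by role. Points under the dashed line of equality, 42 of 48, had a more negative change in numbers 2 to 4. Black rims mark Myc and Nop56, the genes whose changes differed between the runs. Ltv1, Rrp1b and Tsr1 lay near the line at negative values in both, though none of them was called within numbers 5 to 8 (Tsr1 -0.37 ± 0.18).

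Against untreated cells at 2 h, IL-12 for 8 h was called lower for 2 of 48 genes, Ltv1 and Rrp1b (4.17%), against 2.13% of all genes. It was higher for 0, against 1.04% of all genes. Ltv1 in untreated samples was 10.32 and 10.25, above all 8 h samples, with a change of -0.35 ± 0.09 (adjusted p = 0.0462). Rrp1b was 10.46 and 10.45 in untreated samples, also above all 8 h samples, with a change of -0.30 ± 0.08 (adjusted p = 0.0497). Leaving out 8 h sample 2, 3 or 6 or either untreated sample ended both calls, and leaving out 8 h sample 5 ended that of Rrp1b. Myc was 1.41-fold lower (-0.49 ± 0.16, adjusted p = 0.133) and Dhx33 1.29-fold lower (-0.36 ± 0.10, adjusted p = 0.0599), both short of the threshold. Within numbers 5 to 8, which hold all untreated samples, Myc was 12.39 and 12.41 at 8 h against 12.66 and 12.72 untreated, a change of -0.28 ± 0.09 (adjusted p = 0.212). There 0 of the 48 genes were called, where 1.28% of all genes were lower and 0.344% higher. The median change over the 48 was -0.04 in the fit of all arrays and 0.03 within numbers 5 to 8.

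IL-12 for 2 h against untreated cells gave 0 calls among the 48 genes, where limma called 0.0709% of all genes higher and 0 of them lower (0%). At an unadjusted p under 0.05 in limma, 0 of the 48 were higher and 0 lower as well. Of all 19752 genes 539 were higher and 432 lower at that cut. Gnl3 had the smallest p of the set (0.27 ± 0.13, adjusted p = 0.999), followed by Ltv1 (0.17 ± 0.09). Gnl3 was 10.46 and 10.79 in IL-12 2 h samples 5 and 6 and 10.40 and 10.54 in untreated samples, and these ranges overlapped. Myc changed by 0.20 ± 0.16, with a 95% interval of -0.14 to 0.54, and within numbers 5 to 8 by -0.0044 ± 0.09. In that run several genes varied more within a group than between groups. Nop58 was 10.20 and 10.76 in IL-12 samples 5 and 6 and 10.16 and 10.57 in untreated samples 7 and 8. Tsr1 was 10.19 and 10.59 in the same IL-12 samples and 9.99 and 10.54 in the untreated ones. Gar1 was 10.86 and 11.40 in the IL-12 samples and 10.91 and 11.53 in the untreated ones. In each of the 3, IL-12 sample 6 and untreated sample 8 were the high ones.

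Untreated cells at 2 h were compared with the single baseline sample, whose spread is taken from the other groups. Ltv1 was called higher in untreated cells, at 10.32 and 10.25 against 9.69 at baseline, a change of 0.60 ± 0.12 (adjusted p = 0.00449). The call was lost in 3 of 10 alternatives, without the run term (adjusted p = 0.127), with the baseline sample placed among numbers 2 to 4 (0.239) and with the mean of the macrophage and monocyte markers as a covariate (0.468). It was the only call (2.08% of the 48), against 6.28% of all genes called higher, and 0 were lower, against 3.96%. Nob1 was 10.83 and 10.77 in untreated cells and 10.39 at baseline (0.41 ± 0.13, adjusted p = 0.0672). Myc was 12.66 and 12.72 in untreated cells and 12.06 at baseline (0.63 ± 0.21, adjusted p = 0.0752), and within numbers 5 to 8 alone it was called (adjusted p = 0.00922). There Myc and Ltv1 were the 2 of 48 genes higher, against 4.63% of all genes, and 0 were lower, against 2.41%. Thus the order of Myc levels, high to low, was IL-12 2 h and untreated 2 h, which overlapped, then IL-12 8 h. Within numbers 5 to 8, which hold the baseline sample, 8 h samples 5 and 6 lay above the baseline value. The 8 h samples below it, 2 and 3, were of the other run. Ltv1 in the 8 h samples, 9.72 to 10.09, lay between the baseline and the 2 h samples. Markers of other cells also differed between untreated and baseline cells. Of the macrophage and monocyte markers 2 of 14 were higher, with sums of 2193 and 2481 in untreated cells against 1403 at baseline, and of the B cell markers 3 of 7 were lower, with sums of 1138.5 and 1141 against 1601. Of the NK cell markers 2 of 6 were higher and 1 lower, 1 of 2 for CD8 T cells and 1 of 7 for dendritic cells were higher, and 2 of 4 for erythroid cells were lower.

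The runs of title numbers were compared in the same fit. The estimated differences rest on the 9 IL-12 samples, because all untreated and baseline samples are in numbers 5 to 8. Samples numbered 2 to 4 were higher than those numbered 5 to 8 for 11 of 48 genes (22.9%), against 11.8% of all genes, and lower for 1 gene, Ltv1 (2.08%), against 12.5% of all genes. Of the 11 higher genes 5 were 60S factors, Grwd1, Mrto4, Gnl3, Wdr12 and Nop16. The others were Nop58, Pno1, Ddx18, Polr1e, Rrp9 and Nolc1. The median difference over the 48 was 0.10, against 0.04 over all genes. All 11 of the 60S factors had a positive difference, as did 11617 of all 19752 genes.

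Grwd1, a chaperone of ribosomal protein L3, had 9.33, 9.34, 9.54, 9.48 and 9.51 in numbers 2 to 4, the first pair at 8 h and the other 3 at 2 h of IL-12. In numbers 5 to 8 it had 8.92 and 9.16 at 8 h, 8.91 and 8.87 at 2 h, 8.96 and 9.05 untreated and 9.15 at baseline. Every sample of numbers 2 to 4 was above every sample of numbers 5 to 8, and the difference was 0.47 ± 0.07 (adjusted p = 0.000375). Mrto4, a relative of the ribosomal stalk protein P0 that holds its place on pre-60S particles, had 9.38, 9.32, 9.62, 9.57 and 9.68 in numbers 2 to 4. In numbers 5 to 8 it had 9.06 and 9.14 at 8 h, 9.08 and 8.94 at 2 h, 9.13 and 9.08 untreated and 9.32 at baseline. Here the baseline sample reached the lowest sample of numbers 2 to 4, and the difference was 0.45 ± 0.07 (adjusted p = 0.000638). Both probe sets of Mrto4 and of Ddx18 were higher in numbers 2 to 4. Of 2 probe sets for Fbl, the dimmer was called higher (0.25 ± 0.07, adjusted p = 0.0168) and the brighter was not (-0.03 ± 0.07). The dimmer probe set of Wdr12 was not called (0.18 ± 0.08, adjusted p = 0.103), unlike the brighter one. The brightest of the 6 Taf1d probe sets was not called (-0.15 ± 0.08), but another nearly as bright was called higher (0.27 ± 0.09, adjusted p = 0.045). A dimmer one was called higher too (0.44 ± 0.12, adjusted p = 0.0216), and the rest were not called.

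The other differences were 0.37 ± 0.09 for Gnl3, 0.36 ± 0.10 for Nop58 (which lost its call without 8 h sample 3 or 6 or 2 h sample 5), 0.34 ± 0.07 for Pno1, 0.32 ± 0.06 for Wdr12, 0.31 ± 0.06 for Ddx18 and 0.30 for Nop16 (± 0.06) and Polr1e (± 0.05). Rrp9 (0.24 ± 0.08, adjusted p = 0.033) lost its call without any 1 of the 5 IL-12 2 h samples (adjusted p between 0.06 and 0.136), while Nolc1 (0.23 ± 0.05) kept it. Ltv1 at -0.20 ± 0.06 (adjusted p = 0.0387) lost it without any 1 of 8 of the 9 IL-12 samples, all but 8 h sample 6. Myc differed by -0.25 ± 0.12 (adjusted p = 0.125).

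Markers of cell types were counted by run as well, to be read against 11.8% of all genes higher and 12.5% lower. In numbers 2 to 4, 2 of 9 CD4 T cell markers were higher (22.2%) and 2 lower (22.2%). Of 14 macrophage and monocyte markers 7 were lower and 0 higher in numbers 2 to 4, and their summed linear intensity was 1151 to 1248 there and 1403 to 2481 in numbers 5 to 8. Of 7 B cell markers 5 were higher, with sums of 1379 to 1646 in numbers 2 to 4 and 1103 to 1601 in numbers 5 to 8. The 1601 was the baseline sample, and IL-12 samples 5 and 6 had 1103 to 1213 at 8 h and 1121 to 1261 at 2 h. All sums for numbers 5 to 8 in this paragraph include the untreated and baseline samples. Of 6 NK cell markers 4 were lower and 1 higher, with sums of 458 to 596 in numbers 2 to 4 and 564 to 768 in numbers 5 to 8. Of 2 CD8 T cell markers 1 was lower, with sums of 496 to 559 and 618 to 849, which did not overlap. Neutrophil markers had 2 of 8 higher, erythroid markers 1 of 4 higher, and dendritic cell markers 1 of 7 higher and 1 lower. With the mean of the macrophage and monocyte markers as a covariate beside the run, 0 of the 48 genes and 1 of all genes were called for the run. The mean log2 intensity of those markers was 6.17 to 6.28 in numbers 2 to 4 and 6.38 to 6.72 in numbers 5 to 8. It separated the runs by itself, so this fit cannot tell the run from the markers. The part of the markers in the run difference was not tested. With the same covariate 5 of the 48 were lower between 8 h and 2 h of IL-12 (10.4%), against 3.61% of all genes, and 0 were higher, against 2.61%. The 5 were Ltv1, Rrp1b, Myc, Dhx33 and Tsr1.

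**Figure D4:**
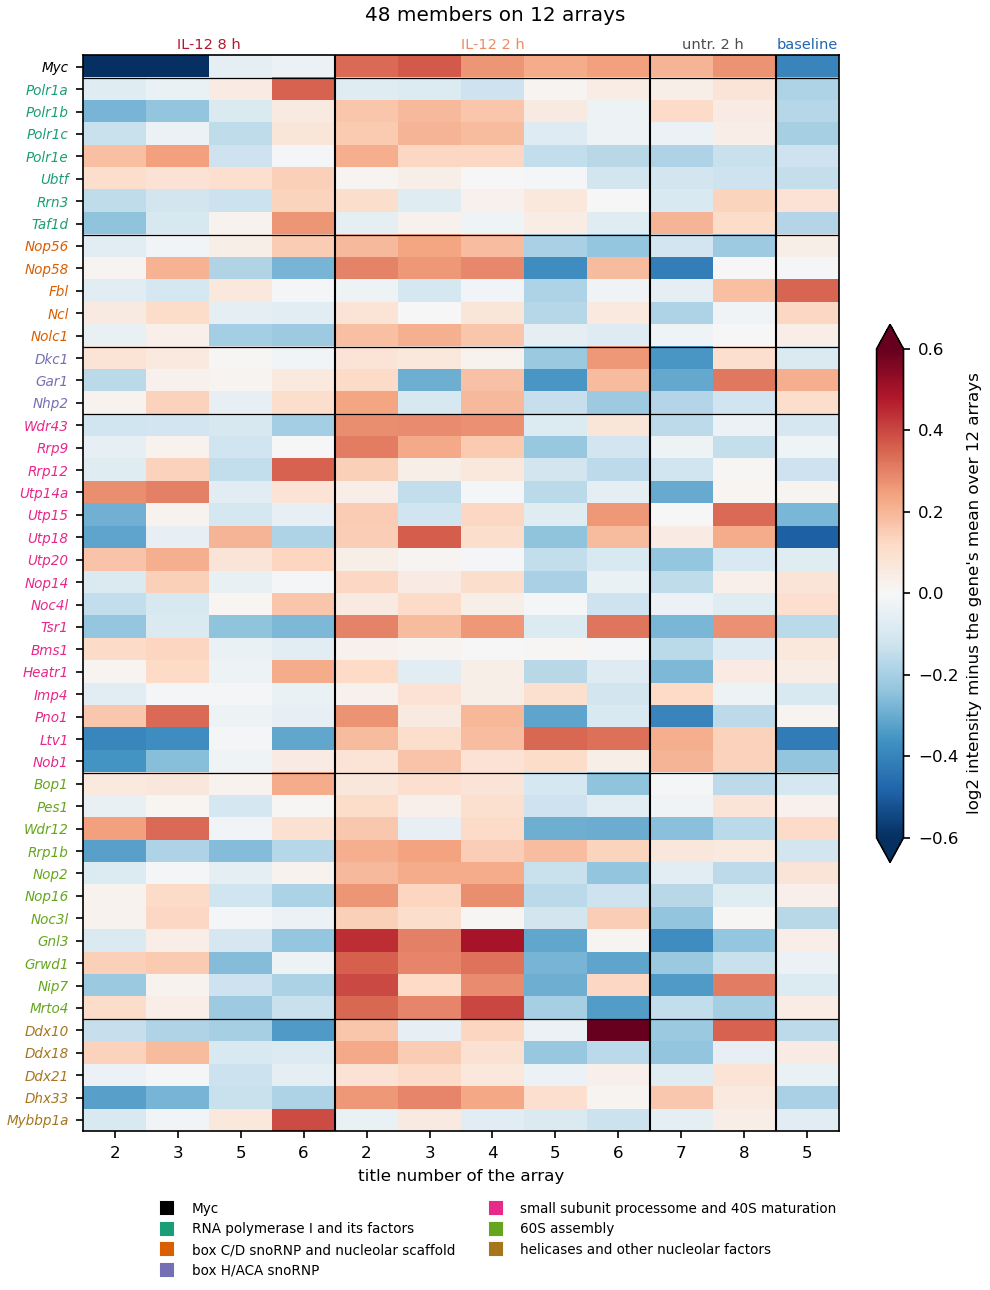
Log2 intensity of 48 genes (rows, grouped and coloured by role) on 12 arrays (columns, by group and title number), each gene minus its own mean over the arrays, with the colour scale ending at 0.6 above and below. Rrp1b and Dhx33 are below their means in every IL-12 8 h column, while Myc is well below its mean in 8 h samples 2 and 3 and close to it in 5 and 6, and Ltv1 is close to its mean in 8 h sample 5 and below it in the others. Grwd1, Mrto4 and Gnl3 are high in the IL-12 2 h columns numbered 2 to 4.

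Seen by array, the median of the 48 genes after centring each gene on its mean was -0.07 and 0.02 in 8 h samples 2 and 3, and 0.15, 0.10 and 0.12 in 2 h samples 2 to 4. In numbers 5 to 8 it was -0.06 and -0.01 at 8 h, -0.12 and -0.04 at 2 h, -0.12 and 0.01 untreated and -0.05 at baseline. The IL-12 2 h samples numbered 2 to 4 thus stood above the other 9 arrays. The same median over all genes stayed between -0.04 and 0.02.

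Other genes of the same process gave a like count between 8 h and 2 h of IL-12. Of 81 other ribosome assembly factors measured 17 were lower (21%) and 0 higher, with a median change of -0.08. They included Riok2, a kinase of pre-40S maturation (-0.49 ± 0.06, adjusted p = 6.07e-05), Nmd3, the 60S export adaptor (-0.41 ± 0.07, adjusted p = 0.0017), and Dimt1, an 18S RNA dimethyltransferase (-0.33 ± 0.06, adjusted p = 0.00205). Within numbers 2 to 4 alone, 27 of these 81 were lower (33.3%), against 7.68% of all genes. Within numbers 5 to 8 alone it was 1 (1.23%), against 1.44% of all genes. Of 9 other RNA polymerase I genes 2 were lower, Taf1a of the SL1 complex (-0.54 ± 0.08, adjusted p = 0.000611) and Twistnb, a polymerase subunit (-0.33 ± 0.08, adjusted p = 0.0184). Of 46 cytosolic ribosomal protein genes 0 were called in either direction by limma, with a median of 0.06 and a smallest adjusted p of 0.135. Of 14 nuclear exosome genes 1 was lower (7.14%, near the 6.36% of all genes), Mphosph6 (-0.34 ± 0.08, adjusted p = 0.0145).

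Calls in the remaining lists are to be read against 6.27% of all genes higher and 6.36% lower. Of 19 RNA polymerase III genes, which make 5S RNA and tRNA, 2 were higher (10.5%), Maf1, the repressor of that polymerase (0.37 ± 0.06, adjusted p = 0.00157), and Gtf3a, the 5S factor (0.33 ± 0.06, adjusted p = 0.00361), and 2 were lower (10.5%), among them Polr3d (-0.35 ± 0.08, adjusted p = 0.0129). In the MYC and MAX network, 3 of 17 were lower (17.6%) and 1 higher (5.88%). Mxd1, a Max partner that opposes Myc, was lower (-0.73 ± 0.06, adjusted p = 5.21e-06), as was Mga (-0.32 ± 0.06, adjusted p = 0.00326), while Mxd3, of the same family as Mxd1, was higher (0.38 ± 0.05, adjusted p = 0.000396). Of 32 other Myc-responsive growth genes 1 was higher (3.12%) and 2 were lower (6.25%), shares at or below those of all genes. The higher one was Cad of pyrimidine synthesis (0.35 ± 0.06, adjusted p = 0.00226), and the lower ones were Mthfd2 of folate metabolism (-0.31 ± 0.08, adjusted p = 0.0249) and Eif4e, the cap-binding factor (-0.24 ± 0.07, adjusted p = 0.0398). Within numbers 2 to 4 alone, 7 of these 32 were lower (21.9%) and 2 higher (6.25%), against 7.68% and 8.65% of all genes. Within numbers 5 to 8 alone 0 were called. The change was called more negative in numbers 2 to 4 than in 5 to 8 for 3 of the 32 (9.38%), against 0.952% of all genes.

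By run, 11.8% of all genes were higher in numbers 2 to 4 and 12.5% lower. Of 46 ribosomal protein genes 16 were higher (34.8%) and 0 lower, led by Rps21 (0.77 ± 0.08) and Rps29 (0.66 ± 0.07). Of the 81 other assembly factors 26 were higher (32.1%) and 3 lower (3.7%), with Utp11 higher by 0.47 ± 0.07 and Ddx47 by 0.38 ± 0.06. Of 14 exosome genes 7 were higher (50%) and 1 lower (7.14%), and of 32 growth genes 9 were higher (28.1%), among them Nme1 (0.61 ± 0.07), and 4 lower (12.5%). Of the MYC and MAX network 3 of 17 genes were higher (17.6%) and 2 lower (11.8%).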

How the data were processed

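The submitters hybridised RNA to 12 arrays and deposited 1 table of linear intensity for 24922 probe sets. Per the submitters' processing notes, the deposited intensity values came from RMA in Affymetrix Power Tools (versions not given), and the genome build behind the probe sets is not given in the sources used here. RMA equalises arrays, so array medians lay between 160.6 and 167.3 and a shift shared by most genes would not show. Arrays have no read depth, and their number limits the precision.

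Values were log2-transformed. The platform annotation gave 1 symbol to 21425 probe sets, several to 1399 and none to 2098. The brightest probe set stood for each of 19752 genes, and 43 of the 48 genes described here had only 1. Groups came from the labels. All arrays entered limma 3.58.1 (R 4.3.3, lmFit and eBayes, 7 residual and 6.84 prior degrees of freedom) with a mean for each of the 4 groups and a run term for the title numbers. Tests were two-sided, with Benjamini-Hochberg adjustment over all genes. A second fit had a mean for each group and run. No filter was set on dim genes. The fit was first checked on simulated data. Python 3.11.15 with pandas 2.3.3 and matplotlib 3.10.9 searched promoters and drew the plots.

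The genes, the 15 further lists (318 genes, 275 measured) and the tests were chosen with earlier results of these data known. Values by array are given for Myc, for up to 3 genes of each role with the smallest p between 8 h and 2 h of IL-12, and for up to 2 in each other comparison, with Utp20 added after its values were seen. Up to 3 genes of a further list are named for each comparison.

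IL-12 samples of both times share the title numbers 2, 3, 5 and 6. Deviations from group means correlated across genes at 0.30 to 0.52 for same-numbered samples, so a fit with the number as a block is reported. Samples of other numbers in the same run correlated at 0.41 to 0.50, so the correlation does not set the number apart from the run. Alternatives were another probe set rule, a filter on dim genes, quantile normalization, an intensity-dependent prior variance, no run term, a macrophage and monocyte covariate, 1 run alone, other placements of the baseline sample, the block, and each replicate left out.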

Additional observations from a re-analysis of the deposited data

Results flagged for a closer look

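Myc stood out because its change between 8 h and 2 h of IL-12 differed between the runs of title numbers, by -0.76 ± 0.11 on the log2 scale (adjusted p = 0.00403 in limma), with the larger fall in numbers 2 to 4. It passed the test without any 1 of the IL-12 samples. Nop56 stood out for the same reason, with a difference of -0.55 ± 0.11 (adjusted p = 0.0191).

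A check for a single sample far from the rest of its group covered 96 groups of 4 or 5 values, in which chance alone picks about 1 in 20, and picked 2. Nop58 was 10.20 in IL-12 2 h sample 5, where the others lay between 10.76 and 10.87. Rrn3 was 11.08 in IL-12 8 h sample 6, where the others lay between 10.79 and 10.83.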

How the results depend on the processing

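The number of arrays limits these results, above all with 2 untreated samples and 1 baseline sample. Of 526 values of single genes under alternatives, 400 kept their direction and side of the threshold, 122 lost the call and 1 gained it. The other 3 changed sign: Myc between IL-12 2 h and untreated was -0.0044 within numbers 5 to 8 and in the fit of group and run means, and Ltv1 by run was 0.10 with the macrophage and monocyte covariate. Between 8 h and 2 h, Ltv1, Rrp1b, Myc and Dhx33 kept their calls under every alternative run except numbers 5 to 8 alone. The cause of the changes below was not tested. The fit of group and run means for the untreated comparisons, numbers 5 to 8 alone for untreated against baseline, and the alternatives for the difference between runs were added after the data were seen.

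Without the run term the 8 h against 2 h calls were 0 higher and 4 lower, the 8 h against untreated calls 0 lower with a median of 0.055, the IL-12 2 h against untreated median 0.10, and untreated against baseline 0 higher. With the covariate there were 0 higher and 5 lower at 8 h against 2 h, 0 lower at 8 h against untreated, 0 higher with a median of 0.068 for untreated against baseline, and 0 higher and 0 lower with a median of 0.011 by run. Numbers 5 to 8 alone gave 0 higher, 0 lower and a median of 0.039 at 8 h against 2 h, 0 lower and a median of 0.029 at 8 h against untreated (the same in the fit of group and run means), and 2 higher for untreated against baseline. Numbers 2 to 4 alone gave 1 higher, 16 lower and a median of -0.15 at 8 h against 2 h. The replicate block gave 0 higher and 5 lower there and changed no other comparison, since it was fitted on IL-12 samples alone. With the baseline sample pooled with untreated ones, 0 were lower at 8 h. With it placed among numbers 2 to 4, 0 were higher in untreated cells, with a median of 0.13. Quantile normalization left 1 lower at 8 h against untreated. By run, 2 were lower without the dimmest 25% of genes and with the intensity-dependent prior.

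With 1 replicate left out, 8 h against 2 h gave 4 to 9 lower (4 without 8 h sample 2, 5 without 8 h sample 3 or 2 h sample 2) and 1 to 3 higher. At 8 h against untreated 0 to 1 were lower, with a median of -0.087 to 0.045. For untreated against baseline the median was -0.093 to 0.030, positive without untreated sample 7. By run 0 to 1 were lower, and the difference between runs was called for 1 to 3 genes.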

Other observations

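Between untreated cells at 2 h and the single baseline sample, 6.28% of all genes were higher and 3.96% lower. Of 81 other assembly factors 7 were higher in untreated cells (8.64%) and 3 lower (3.7%). Riok2 was higher (0.52 ± 0.10, adjusted p = 0.00433), and Tsr3, which modifies 18S RNA, was lower (-0.78 ± 0.14, adjusted p = 0.00227). Taf1a was higher (0.77 ± 0.15, adjusted p = 0.00405). Mxd1 was higher as well (0.54 ± 0.11, adjusted p = 0.00781), and Maf1 was lower (-0.53 ± 0.12, adjusted p = 0.00957). Of 46 ribosomal protein genes 0 were higher and 2 lower (4.35%), Rps21 (-0.67 ± 0.14, adjusted p = 0.00836) and Rps29 (-0.53 ± 0.13, adjusted p = 0.0152). There is 1 baseline sample, so its own spread is not known. The 6 probe sets of Taf1d gave changes between -0.57 and 0.10 from 8 h against 2 h of IL-12, with 0 of the 6 called.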
